A study of Homo sapiens with 4 samples.

Results

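The collagen genes of UMSCC74B cells, an established line of head and neck squamous cell carcinoma, were compared between control cells and cells labelled PRMT5 KD. Members were all entries of the count tables whose name consists of COL, a number, A and a number, with entries of one name summed. This gave 44 genes of 29655 distinct names, 18896 of them protein-coding. They were divided by the structure their protein forms into 11 fibrillar collagens, 8 basement membrane collagens and 25 other collagens.

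Total RNA was sequenced from 2 libraries of cells given control shRNA and 2 libraries of cells given PRMT5 shRNA, all 72 h after delivery. PRMT5 is the enzyme that places symmetric dimethyl marks on arginine residues of histones, splicing factors and other proteins. Both groups carried shRNA, which the labels describe as transfected plasmid and the methods of the study as lentiviral particles, and no other allele or agent was named for either group. A single line was used. The labels do not say that the replicates came from separate cultures, so the p-values measure only the spread between these libraries, which may be technical.

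Collagens are the chief structural proteins of the extracellular matrix. Each molecule is wound from chains that are the same or the products of different genes, so the balance of chains sets which molecules can form. Fibrillar collagens such as types I, III and V make the cables of connective tissue, type IV makes the sheet under epithelia, and other types coat fibrils, form fine filaments or span the cell membrane. In carcinomas, most fibrillar collagen is known to come from fibroblasts of the stroma, and tumour cells can also make it.

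Each library held between 52185289 and 65964558 counts, of which 71.5% to 81.3% fell on protein-coding names. Ribosomal RNA names took 15.3% and 14.2% of control counts against 26.2% and 18.0% in the KD-labelled libraries. PRMT5 itself stood at 94.3 and 84.3 CPM in control and 132 and 149.6 CPM in the KD-labelled libraries, where CPM is the count divided by the TMM-adjusted total over the tested genes and given per 1000000. The targeted transcript was thus higher under the knockdown label, with a log2 fold change of 0.66 (SE 0.12, edgeR adjusted p = 0.00543). Without control replicate 2 this was 0.58 with an adjusted p of 0.0660, no longer past the threshold. The study checked the silencing at the protein level by immunoblot, which was not analysed here. Every direction given for the PRMT5 KD group therefore refers to the label of the libraries.

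The labelled cell type was checked against 8 epithelial markers. The keratins KRT5, KRT14 and KRT6A of squamous epithelium and the general epithelial cadherin CDH1 were under 1 CPM in all 4 libraries, EPCAM was at most 1.00 CPM, and the sum of the 8 markers was 1.26 and 1.26 RPKM (CPM per kilobase of exon) in control against 1.51 and 2.93 RPKM in the KD-labelled libraries. TP63, the transcription factor of basal squamous cells, was the 1 marker that passed the filter. It stood at 5.51 and 6.60 CPM in control and 1.75 and 3.01 CPM under the label, and was called lower (-1.35, adjusted p = 0.0110). TP63 passed through the control group only, with 0.233 and 0.403 RPKM under the label. In a fit without the filter, 3 markers were called higher under the label, namely KRT17 (0.126 and 0.120 CPM in control and 1.11 and 1.49 CPM under the label, adjusted p = 0.000469), SFN (0.0758 and 0.100 CPM and 0.589 and 1.80 CPM, adjusted p = 0.00265) and KRT14 (0 counts in both controls and 11 and 22 counts under the label, adjusted p = 0.00446). VIM, the mesenchymal intermediate filament, stood at 1924 and 1792 CPM in control and 2515 and 2373 CPM under the label. KRT18, a keratin of simple epithelium, stood at 61.8 and 54.1 CPM and 51.5 and 73.5 CPM. KRT8, another keratin, was called lower (-0.85, edgeR adjusted p = 0.0291), and VIM, KRT18 and CDH2 were not called. Of the 8 epithelial markers, 7 were thus at or under 1.80 CPM in every library of a line labelled as squamous carcinoma, and TP63 was above that level in 3 libraries.

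Collagen mRNA as a whole was lower under the PRMT5 KD label. The RPKM of the 44 genes summed to 829.5 and 891 in the control libraries and to 397 and 345 in those labelled PRMT5 KD. Both labelled libraries lay below both controls, and the group mean was 0.431 of the control mean (860.4 ± 43.7 against 371.2 ± 36.8 RPKM, SD, n = 2). As a share of all protein-coding counts, collagens took 0.702% and 0.715% in control and 0.349% and 0.332% under the label. With 2 libraries a group, an exact permutation test of such a value cannot give a two-sided p below 0.333, so these sums are described without a test.

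The classes did not move alike in this sum. Fibrillar collagens summed to 175 and 161 RPKM in control and 52.9 and 63.3 RPKM under the label, with no overlap. Basement membrane collagens summed to 21.4 and 23.5 RPKM in control and 22.2 and 26.7 RPKM under the label, and here the groups overlapped. Without division by length the same sum was 304.0 and 330.2 CPM in control and 361 and 415 CPM under the label, and with the length of the longest transcript 48.0 ± 2.89 RPKM in control and 59.6 ± 5.80 RPKM under the label (SD, n = 2), so that on both of these scales the labelled libraries were higher without overlap (1.22-fold and 1.24-fold in the group means). Their share of collagen mRNA was 2.57% and 2.64% in control against 5.59% and 7.75%. The remaining collagens made up most of the sum in every library, from 73.9% to 81.1%.

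**Figure D1:**
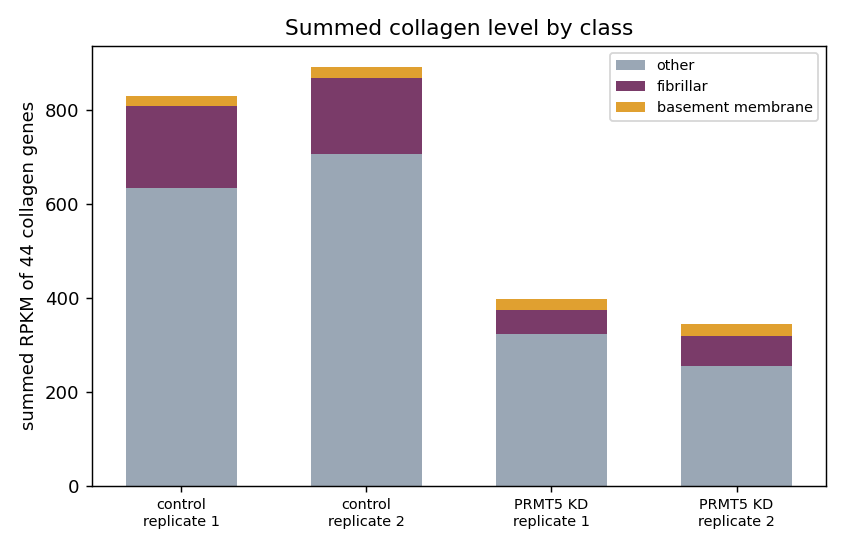
Summed RPKM of the 44 collagen genes in each library, stacked by class (bars start at 0, one library per bar). The control bars reach 829.5 and 891 and the PRMT5 KD bars 397 and 345, and the basement membrane segments are 21.4, 23.5, 22.2 and 26.7 from left to right.

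Few genes carried this mRNA. The 5 most abundant collagens of a library held between 80.1% and 84.0% of its collagen RPKM. In both control libraries and in PRMT5 KD replicate 2 these were COL8A1, COL6A2, COL5A2, COL6A1 and COL12A1, and in PRMT5 KD replicate 1 COL7A1 took the place of COL12A1. Ordered by mean control RPKM among the 11882 genes tested, COL6A2 held rank 67, COL8A1 rank 89, COL6A1 rank 156, COL5A2 rank 234 and COL12A1 rank 337. In the PRMT5 KD group COL12A1 held rank 2659. The order among COL6A2 and COL8A1 differed between the control libraries and cannot be set.

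Of the 44 genes, 21 reached 0.5 RPKM in both libraries of at least 1 group and were tested with edgeR. A gene was called at an adjusted p under 0.05 and a log2 fold change of at least 0.5 in size. Of the 21 tested, 17 were called lower under the PRMT5 KD label, 1 was called higher and 3 were not called. COL3A1, COL4A4, COL8A2, COL9A2 and COL18A1 reached 0.5 RPKM in both control libraries and not in both labelled libraries, and each was called lower. The filter thus admitted these genes through the group in which they were higher. Over all 11882 genes tested, 24.4% were called lower, 21.2% higher and 45.6% in either direction, and the median log2 fold change was -0.0077 against -1.29 for the tested collagens. The libraries of the 2 groups did not overlap in CPM for 19 of the 21 collagens, where the same held for 80.5% of all genes tested. By class, 6 of 6 tested fibrillar collagens, 3 of 6 tested basement membrane collagens and 8 of 9 other collagens were called lower. COL4A4 and COL18A1, which passed through the control group only, were among those 3 basement membrane calls. In bulk RNA, fewer cells of a type and less RNA per cell cannot be told apart.

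**Figure D2:**
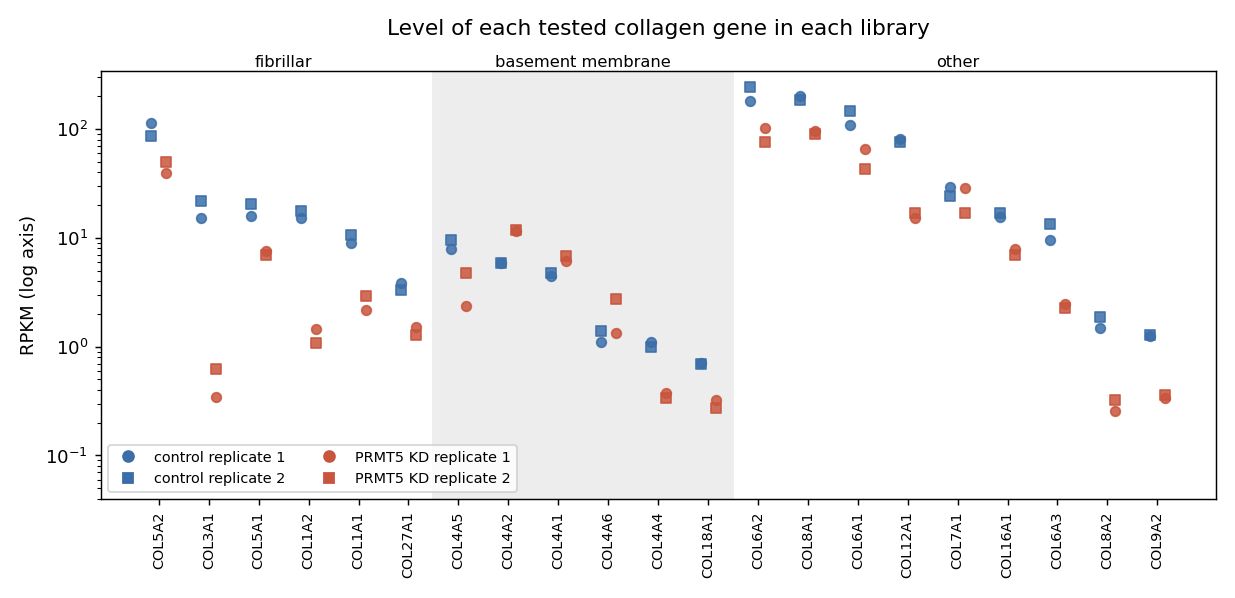
RPKM (log axis) of the 21 tested collagen genes in each library, ordered by mean control level within class. Blue symbols are the 2 control libraries and red symbols the 2 PRMT5 KD libraries; the red symbols lie below the blue in all 6 fibrillar genes and above them for COL4A1 and COL4A2.

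Among the 3 classes, the tested fibrillar collagens had the most negative median log2 fold change, -1.65, against -1.24 for the other collagens and -0.37 for those of the basement membrane. COL4A4 and COL18A1 entered the basement membrane median through the control group only. The genes of that class without this limit, COL4A1, COL4A2, COL4A5 and COL4A6, changed by 0.48, 0.99, -1.29 and 0.72. COL3A1, COL8A2 and COL9A2 entered the medians of their classes through the control group only as well. COL3A1, the sole chain of type III collagen, stood at 102 and 147 CPM in control and 2.33 and 4.19 CPM under the label. COL1A2, the second chain of type I collagen, stood at 165 and 191 CPM and 15.6 and 11.6 CPM. COL1A1, the main chain of type I collagen, stood at 81.5 and 95.4 CPM and 19.6 and 26.2 CPM. In each of these genes both labelled libraries lay below both controls, where the groups did not overlap for 80.5% of all genes tested. The log2 fold change was -5.25 (SE 0.36, adjusted p = 0.000525) for COL3A1, a 38.2-fold lower level, and -3.71 (SE 0.19, adjusted p = 0.000191) for COL1A2, 13.1-fold lower. COL1A1 fell less, with -1.95 (SE 0.18, adjusted p = 0.000506) or 3.86-fold.

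The chains of type I collagen thus changed by different amounts. The ratio of COL1A1 to COL1A2 in RPKM was 0.592 and 0.598 in control and 1.50 and 2.72 under the label. The controls were nearly equal, the labelled libraries were apart from each other, and the groups did not overlap. COL1A1 lies on chromosome 17 from 50184101 to 50201632 and COL1A2 on chromosome 7 from 94394895 to 94431227 of GRCh38, so the genes are not neighbours.

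Type V collagen, which is known to start and thin the fibrils of type I, also fell. COL5A2 was the most abundant fibrillar collagen of these cells, at 838 and 630.2 CPM in control and 288 and 367 CPM under the label. COL5A1 stood at 178 and 229 CPM and 85.1 and 77.1 CPM. The log2 fold changes were -1.16 (SE 0.20, adjusted p = 0.00384) and -1.33 (SE 0.15, adjusted p = 0.000985). The ratio of COL5A1 to COL5A2 in RPKM overlapped between the groups, at 0.139 and 0.239 in control and 0.194 and 0.138 under the label. COL5A2 lies 19151 bases from COL3A1 on chromosome 2, on the other strand, and the log2 fold changes of these neighbours were -1.16 and -5.25.

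COL27A1, a fibrillar collagen of cartilage, stood at 53.9 and 46.1 CPM in control and 21.2 and 18.0 CPM under the label, a log2 fold change of -1.35 (SE 0.15, adjusted p = 0.000776). The other 5 fibrillar genes did not pass the filter on low levels. COL11A1, a chain of type XI collagen of cartilage, had 131 and 206 control counts against 8 and 15 under the label, and its partner COL11A2 had 103 and 112 against 25 and 47. COL24A1 had 105 and 124 control counts against 36 and 27, and COL5A3, a further type V chain, 79 and 84 against 66 and 38. The groups did not overlap in count in any of these 4 genes, and in CPM they did not overlap for 80.5% of all genes tested. The ratio of COL11A1 to COL11A2 in RPKM was 1.03 and 1.49 in control and 0.259 and 0.259 under the label. In a fit without the filter, 19.2% of 16814 genes were called lower and 17.5% higher. There COL11A1 (-3.88, adjusted p = 9.21e-05), COL11A2 (-1.62, adjusted p = 0.00801) and COL24A1 (-1.90, adjusted p = 0.00192) were called lower. COL5A3 was not called in that fit (-0.70, adjusted p = 0.174). COL2A1, the main collagen of cartilage, and COL6A5, COL6A6, COL9A1, COL20A1, COL22A1, COL23A1 and COL26A1 of the other classes had at most 9 counts in any library.

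**Figure D3:**
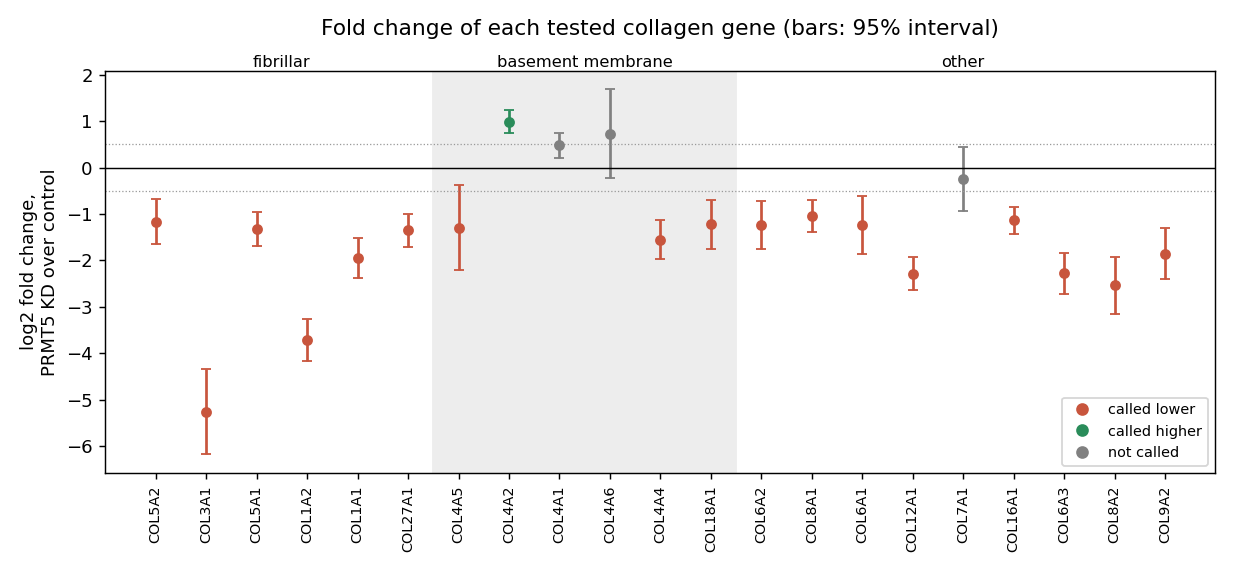
Log2 fold change (PRMT5 KD over control, edgeR) of the 21 tested collagen genes with 95% intervals, by class; dotted lines mark 0.5 in each direction. The points run from -5.25 for COL3A1 to 0.99 for COL4A2, and 17 of them are called lower.

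Basement membrane collagens were mixed. Type IV collagen is made from chains whose genes lie in pairs, head to head, so that the members of a pair are read in opposite directions from the DNA between them. The pair COL4A1 and COL4A2 encodes the type IV molecule found in nearly every basement membrane, and the other pairs encode chains of more specialised membranes such as those of kidney and skin. The stretches from which the pairs are read are shown here, for COL4A5 and COL4A6 in part, because the amount of change differed within pairs. Only COL4A5 and COL4A6 had log2 fold changes of opposite sign, and COL4A6 was not called. The capitals mark the CCAAT box, searched as those letters, and the GC box, searched as GGGCGG, on either strand. The sequences come from the GRCh38.p14 assembly and the starts annotated by RefSeq or GENCODE, and 32 of the 44 collagens had a RefSeq promoter entry. The first is the DNA between the RefSeq starts of COL4A1 and COL4A2, chr13:110307158-110307283, plus strand. The second lies between the GENCODE starts of COL4A4 and COL4A3, chr2:227164454-227164623, plus strand. The third holds the 250 bases before the start of COL4A5, chrX:108439588-108439837, plus strand, on the side of COL4A6.
COL4A1-COL4A2 interval: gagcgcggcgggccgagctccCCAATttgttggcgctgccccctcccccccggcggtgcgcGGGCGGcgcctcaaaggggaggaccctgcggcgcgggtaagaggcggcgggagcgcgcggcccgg
COL4A4-COL4A3 interval: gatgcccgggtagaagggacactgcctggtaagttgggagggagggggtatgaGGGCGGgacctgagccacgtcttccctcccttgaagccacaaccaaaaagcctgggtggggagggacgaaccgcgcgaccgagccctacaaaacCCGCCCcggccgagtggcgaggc
COL4A5: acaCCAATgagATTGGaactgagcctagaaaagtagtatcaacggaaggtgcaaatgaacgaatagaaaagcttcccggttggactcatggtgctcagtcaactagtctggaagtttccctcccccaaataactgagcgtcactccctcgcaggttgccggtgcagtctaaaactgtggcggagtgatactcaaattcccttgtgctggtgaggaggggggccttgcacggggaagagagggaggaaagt
The first interval holds 1 CCAAT box and 1 GC box in 126 bases, and windows of that length before the starts of 35116 RefSeq promoters hold a CCAAT box in 21.1% and a GC box in 34.6%. The second holds 2 GC boxes in 170 bases, where 38.3% of promoters hold at least 1. The COL4A5 window holds 2 CCAAT boxes and no GC box, where 32.0% and 42.6% of promoters of that length hold them. These matches are descriptions of the letters only.

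COL4A2 was the single collagen called higher. It stood at 113 and 114 CPM in control and 222 and 227 CPM under the label, a log2 fold change of 0.99 (SE 0.11, adjusted p = 0.000775). The correction for length and GC content, with which every collagen called lower fell less, gave COL4A2 a log2 fold change of 1.64. Its partner COL4A1 stood at 66.1 and 70.0 CPM and 90.5 and 99.5 CPM, also without overlap. The log2 fold change of COL4A1 was 0.48 (95% interval 0.21 to 0.75, adjusted p = 0.0120), just under the size required for a call, and without PRMT5 KD replicate 1 it was 0.58 and called higher. It was also called higher with scaling by total counts, with 2 other filters on low counts, over all gene names and with a correction for length and GC content. The ratio of COL4A1 to COL4A2 in RPKM was 0.772 and 0.810 in control and 0.535 and 0.577 under the label. The annotated genes overlap by 1346 bases on opposite strands in GENCODE, and use of strand in the counting is not given in the sources used here, so counts in the overlap are uncertain.

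The pair COL4A3 and COL4A4, whose chains join that of COL4A5 in the kidney filter, was lower on both sides. COL4A4 stood at 12.9 and 11.6 CPM in control and 4.42 and 3.96 CPM under the label, a log2 fold change of -1.55 (SE 0.17, adjusted p = 0.000855). COL4A3 did not pass the filter, with 96 and 120 control counts and 18 and 25 under the label, and was called lower in the fit without the filter (-2.36, adjusted p = 0.000823). Both genes were low in both groups compared with COL4A1 and COL4A2.

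The pair COL4A5 and COL4A6 went apart. COL4A5 stood at 93.8 and 114 CPM in control and 28.3 and 56.5 CPM under the label, with both labelled libraries below the controls. COL4A6 stood at 10.2 and 12.8 CPM and 12.3 and 25.7 CPM, and the groups overlapped. The log2 fold change of COL4A5 was -1.29 (SE 0.35, adjusted p = 0.0325). This call was lost without control replicate 1 (adjusted p = 0.0659), without control replicate 2 (adjusted p = 0.120), with scaling by total counts (adjusted p = 0.108), without the filter (adjusted p = 0.0874) and with the length and GC correction (adjusted p = 0.0884). With that correction and a replicate block together it was called (adjusted p = 0.0149). Its value was -0.85 without PRMT5 KD replicate 1 and -1.87 without PRMT5 KD replicate 2.

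COL4A6 gave 0.72 on the log2 scale with a 95% interval of -0.23 to 1.68 and an edgeR adjusted p of 0.160, and was not called. Without PRMT5 KD replicate 1 it was 1.19 and called higher, and without PRMT5 KD replicate 2 it was 0.097. It was also called higher with the length and GC correction and a replicate block together (0.95, adjusted p = 0.0205). Within each library, however, the ratio of COL4A5 to COL4A6 in RPKM was 7.21 and 6.92 in control and 1.80 and 1.72 under the label. The ratio varied little within a group and was 4.02-fold lower under the label, while PRMT5 KD replicate 2 held more of both genes than replicate 1.

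**Figure D4:**
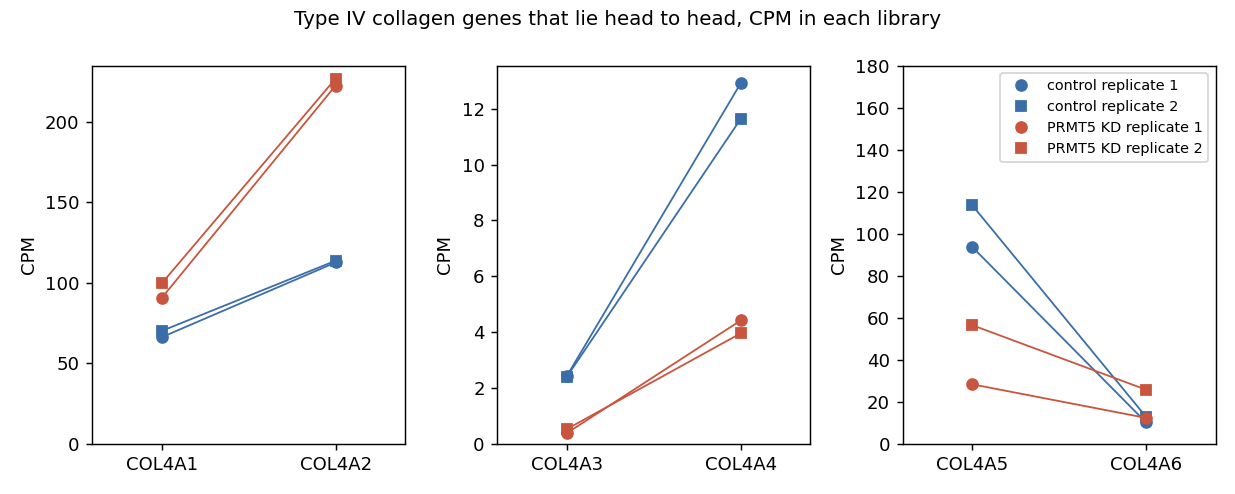
CPM (linear axes from 0) of the 3 head-to-head pairs of type IV collagen genes, one line per library joining the genes of a pair. Both genes of the first pair lie higher in the red PRMT5 KD libraries, both of the second lie lower, and in the third COL4A5 is lower while COL4A6 overlaps.

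COL18A1, whose protein carries the fragment endostatin, stood at 5.94 and 5.84 CPM in control and 2.73 and 2.30 CPM under the label, a log2 fold change of -1.23 (SE 0.22, adjusted p = 0.00437). Without control replicate 2 the call was lost (adjusted p = 0.0549). COL15A1, its closest relative, had 5 and 14 control counts and 20 and 5 under the label and was not tested.

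Type VI collagen, which forms beaded filaments around cells and is known to link the cell surface to the matrix, was among the most abundant collagens and fell. COL6A2 stood at 974 and 1289 CPM in control and 551 and 406 CPM under the label, and COL6A1 at 608 and 808 CPM and 365 and 238 CPM. COL6A3, the large chain, stood at 207 and 287 CPM and 53.5 and 48.6 CPM. No labelled library reached a control library in any of the 3 genes, where the groups did not overlap for 80.5% of all genes tested. The log2 fold changes were -1.24 (SE 0.22, adjusted p = 0.00429) for COL6A2, -1.23 (SE 0.25, adjusted p = 0.00897) for COL6A1 and -2.27 (SE 0.18, adjusted p = 0.000415) for COL6A3. The call of COL6A1 was lost without control replicate 2 (-1.01, adjusted p = 0.0668).

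COL6A1 and COL6A2, which are on the same strand of chromosome 21 and 93061 bases apart, kept close to 1 ratio in every library. COL6A1 over COL6A2 in RPKM was 0.601 and 0.604 in control and 0.637 and 0.564 under the label. COL6A3, which lies on chromosome 2, did not keep its ratio to COL6A1, at 0.0876 and 0.0913 in control and 0.0378 and 0.0526 under the label. The level of this ratio depends on the length used, with a control mean of 0.0894 in RPKM and 0.348 in counts, while its change between the groups does not. Of the other type VI genes, COL6A5 had 4 and 9 control counts and 0 and 0 under the label and was called lower without the filter (adjusted p = 0.0278), and COL6A6 was not called there. The processed tables also list COL6A4P1, a type VI pseudogene and no member, at 30 and 28 control counts and 6 and 13 under the label.

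Of the 3 tested collagens that coat fibrils, COL12A1 had the most negative change. It stood at 1540.4 and 1421 CPM in control and 289.8 and 319.8 CPM under the label, 4.86-fold lower (log2 fold change -2.28, SE 0.15, adjusted p = 0.000259). COL12A1 is known to lie along type I fibrils of dense connective tissue. COL16A1 stood at 145 and 157 CPM and 72.7 and 64.2 CPM (-1.14, SE 0.12, adjusted p = 0.000742). COL9A2, a chain of cartilage type IX, stood at 5.31 and 5.34 CPM and 1.43 and 1.51 CPM (-1.86, SE 0.23, adjusted p = 0.00116). All 3 tested collagens of this kind were thus called lower, without overlap between the groups. Of all genes tested, 24.4% were called lower and 80.5% did not overlap. COL9A2 passed the filter through the control group only, with 0.339 and 0.357 RPKM under the label.

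The type IX chains did not change alike. COL9A3 did not pass the filter, with 43 and 78 control counts and 95 and 95 under the label. The ratio of COL9A2 to COL9A3 in RPKM was 5.61 and 3.93 in control and 0.822 and 0.870 under the label. COL14A1, also of this class, had 18 and 40 control counts and 5 and 5 under the label, and was called lower in the fit without the filter (-2.51, adjusted p = 0.00798). COL21A1 had 24 and 24 control counts against 16 and 18 under the label and COL19A1 5 and 10 against 14 and 7, and neither passed the filter.

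COL8A1, a chain of type VIII collagen, which forms hexagonal nets under vessel and corneal endothelium, was the collagen with the highest CPM in both groups. It stood at 1886 and 1738 CPM in control and 907 and 851 CPM under the label, a log2 fold change of -1.04 (SE 0.14, adjusted p = 0.00171). Its partner chain COL8A2 was far lower, at 6.90 and 8.76 CPM and 1.20 and 1.51 CPM, and changed by -2.53 (SE 0.25, adjusted p = 0.00062). COL8A1 exceeded COL8A2 in RPKM by a ratio of 136 and 98.5 in control and 376 and 280.2 under the label, and the control mean of this ratio was 117 in RPKM and 236 in counts. The related COL10A1, of cartilage growth plates, had 9 and 5 control counts and 49 and 17 under the label. It was called higher in the fit without the filter (2.16, adjusted p = 0.0314), with few counts behind it.

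COL7A1, which forms the anchoring fibrils that hold the epidermis to the dermis, was not called. It stood at 329.6 and 269 CPM in control and 318 and 187 CPM under the label, so that PRMT5 KD replicate 1 lay between the controls and replicate 2 below them. The log2 fold change was -0.25 (95% interval -0.93 to 0.43, adjusted p = 0.473). Without PRMT5 KD replicate 1 it was -0.65 and called lower, and without PRMT5 KD replicate 2 it was 0.089. Its direction also turned with the length and GC correction (0.29).

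None of the 4 transmembrane collagens passed the filter. COL17A1, the hemidesmosome collagen of basal epithelial cells, had 36 and 36 control counts and 138 and 358 under the label, and was called higher in the fit without the filter (2.73, adjusted p = 0.00509). COL17A1 is known as a gene of basal keratinocytes. Of the epithelial markers, KRT14, KRT17 and SFN were called higher in the same fit, at the low levels given with the check of the cell type. KRT5, KRT6A, EPCAM and CDH1 were not called there. TP63, which passed the filter through the control group only, went the other way and was called lower in the main fit (-1.35, adjusted p = 0.0110). COL25A1 had 37 and 61 control counts and 8 and 7 under the label. In the fit without the filter COL25A1 was called lower (-2.71, adjusted p = 0.00157). COL13A1 had 100 and 174 control counts against 226 and 142 under the label, with overlap between the groups, and COL28A1, of unassigned structure, 15 and 20 against 4 and 12. In all, 15 of the 23 members below the filter had more than 10 counts in a library, and in the fit without the filter 7 of the 23 were called lower and 2 higher, against 19.2% and 17.5% of all genes in that fit.

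The 250 bases before the start are shown for COL8A2 and COL6A2, which fell, and for COL17A1, which was higher in the fit without the filter. COL8A2 is at chr1:36125223-36125472, minus strand, COL6A2 at chr21:46097862-46098111, plus strand, and COL17A1 at chr10:104085881-104086130, minus strand, all in GRCh38.p14 from RefSeq. Capitals mark the CCAAT box and GC box as above, the TATA box searched as TATAAA, the AP-1 site searched as TGANTCA and a form of E-box searched as CACCTG, on either strand, overlaps included.
COL8A2: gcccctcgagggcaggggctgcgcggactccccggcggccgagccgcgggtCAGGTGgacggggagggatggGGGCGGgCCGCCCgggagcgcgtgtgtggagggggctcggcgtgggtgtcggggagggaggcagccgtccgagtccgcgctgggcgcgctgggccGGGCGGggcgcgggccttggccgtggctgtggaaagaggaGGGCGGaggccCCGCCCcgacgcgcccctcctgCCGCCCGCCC
COL6A2: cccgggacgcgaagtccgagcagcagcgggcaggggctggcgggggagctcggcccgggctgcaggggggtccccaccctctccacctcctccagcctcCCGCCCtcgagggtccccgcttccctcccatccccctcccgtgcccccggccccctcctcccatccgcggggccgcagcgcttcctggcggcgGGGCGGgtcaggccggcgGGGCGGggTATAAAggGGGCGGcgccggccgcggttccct
COL17A1: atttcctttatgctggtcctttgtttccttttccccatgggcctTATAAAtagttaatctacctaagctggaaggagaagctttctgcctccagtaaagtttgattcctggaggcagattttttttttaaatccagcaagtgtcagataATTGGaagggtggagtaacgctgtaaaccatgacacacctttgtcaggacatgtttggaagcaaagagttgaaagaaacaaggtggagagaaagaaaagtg
The COL8A2 window holds 7 GC boxes and 1 E-box, the COL6A2 window 4 GC boxes and 1 TATA box, and the COL17A1 window 1 CCAAT box and 1 TATA box. The TATAAA of COL6A2 lies near the start of the gene, and that of COL17A1 near the far end of its window. These matches too are descriptions of the letters only. GC content was 82.0%, 79.6% and 40.4%. Of all 35116 promoters, 42.6% hold a GC box, 10.7% a TATA box and 17.5% this E-box, and the AP-1 letters are in 6.57%. Of the 15 tested collagens with a promoter entry, 12 had a GC box, 4 a CCAAT box, 4 the E-box and 3 a TATA box in at least 1 entry.

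In the main fit most tested genes that modify and fold procollagen were called lower too. These enzymes and chaperones of the endoplasmic reticulum hydroxylate proline and lysine, add sugars and hold the chains while they wind. Of 17 genes, 15 were tested and 12 were called lower, with a median log2 fold change of -0.63 against -0.0077 over all genes. Of all genes tested, 24.4% were called lower. With the length and GC correction 8 of the 15 were called in either direction, and 5349 of all 11882 genes. In that fit 21.0% of all genes were called lower and 24.0% higher. At a threshold of 1 on the log2 scale 3 of the 15 were called, and 2560 of all 11882 genes. The most negative log2 fold changes of the main fit were -1.76 for P3H3 (listed as LEPREL2), -1.33 for PLOD2 and -1.12 for P3H4 (listed as LEPREL4). COLGALT1 and P3H1 (listed as LEPRE1) followed with -0.85 each. P3H1 and P3H3 belong to the prolyl hydroxylases, PLOD2 is a lysyl hydroxylase and COLGALT1 adds galactose to hydroxylysine. PLOD2 stood at 2457 and 2418 CPM in control and 899 and 1033 CPM under the label (adjusted p = 0.000922). Without control replicate 2 fewer genes of this list were called, and fewer of all genes as well.

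Of 17 genes that export procollagen, cleave its ends and cross-link fibrils, 15 were tested and 11 were called lower, with a median of -1.05. Over all genes tested, 24.4% were called lower and the median was -0.0077. TLL1, a protease that cleaves procollagen ends, stood at 8.32 and 6.78 CPM in control and 0.526 and 0.314 CPM under the label (-4.16, adjusted p = 0.000351). ADAMTS14, another such protease, stood at 9.99 and 15.4 CPM and 1.07 and 0.628 CPM (-3.90, adjusted p = 0.000519). TLL1 and ADAMTS14 passed the filter through the control group only, with 0.0649 and 0.0387 RPKM and 0.193 and 0.113 RPKM under the label. PCOLCE, which speeds the cleavage, changed by -3.01 (adjusted p = 0.000332), and the cross-linking oxidases LOXL4 and LOXL1 by -3.53 and -2.52. Without control replicate 2 the number called in this list fell, as did the number over all genes.

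The collagen receptors were split. Of 11 genes, 9 were tested, of which 6 were called lower and 2 higher, with a median of -1.64. Over all genes tested, 24.4% were called lower and 21.2% higher, and the median was -0.0077. ITGA2, the integrin chain of epithelial cells and platelets that binds collagen, rose from 117 and 118 CPM to 427 and 416 CPM (1.84, adjusted p = 0.000243). The integrin chains ITGA10 and ITGA11, known from cartilage and fibroblasts, changed by -4.24 and -3.05 on the log2 scale. ITGA11 stood at 36.4 and 51.9 CPM in control and 4.58 and 6.07 CPM under the label. ITGA10 and ITGA11 passed the filter through the control group only, with 0.135 and 0.0972 RPKM and 0.422 and 0.5585 RPKM under the label. ITGA1 stood at 102 and 113 CPM in control and 365 and 92.8 CPM under the label, so that PRMT5 KD replicate 1 alone was high, and it was not called (1.09, adjusted p = 0.222). ITGB1, the chain that pairs with all of these, changed by -1.14 (adjusted p = 0.00170). The collagen-binding kinases DDR1 and DDR2 changed by -1.75 and -1.64, the uptake receptor MRC2 by -2.09, and OSCAR by 0.85 (adjusted p = 0.0171).

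Of 15 proteoglycans and glycoproteins that sit on fibrils, 7 passed the filter and 6 of them were called lower, with a median of -1.27. Over all genes tested, 24.4% were called lower and the median was -0.0077. LUM, the proteoglycan lumican, changed by -2.73, DCN (decorin) by -1.74, FMOD (fibromodulin) by -1.29, FN1 (fibronectin) by -1.27 and THBS1 (thrombospondin) by -0.94. FN1 was abundant, at 3560.4 and 5097 CPM in control and 1894 and 1696 CPM under the label (adjusted p = 0.00347). Without control replicate 1 the number called in this list fell, as did the number over all genes.

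**Figure D5:**
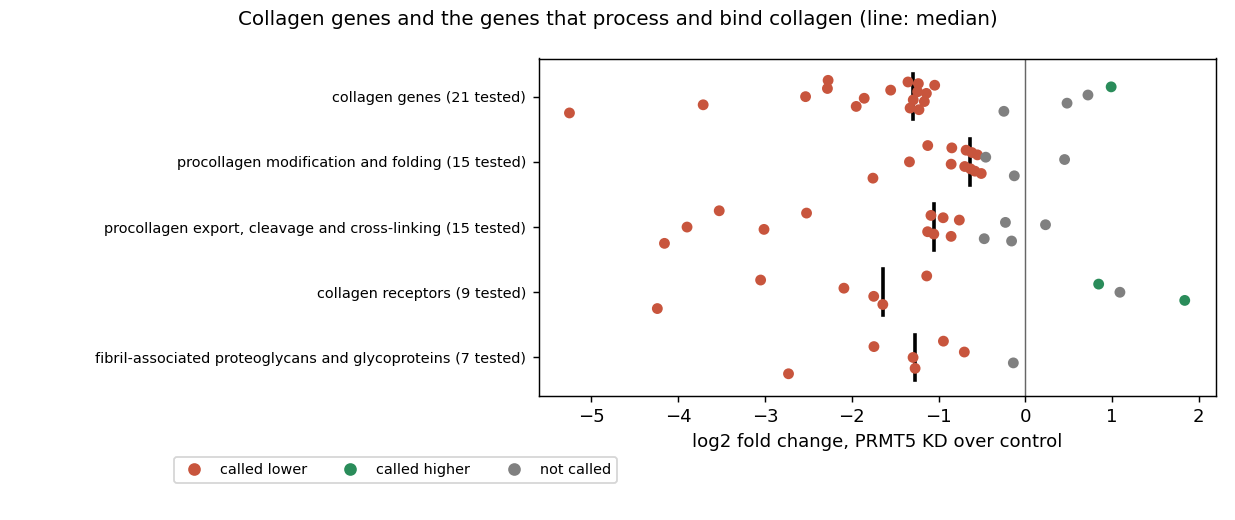
Log2 fold change (PRMT5 KD over control) of the tested genes of each list, one point per gene, with a bar at the list's median. The medians are -1.29, -0.63, -1.05, -1.64 and -1.27 from top to bottom, and the receptor list holds points on both sides of 0.

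Markers of fibroblasts, a cell type that makes fibrillar collagen, were lower under the label. Of 8 fibroblast markers 6 passed the filter and all 6 were called lower, where 24.4% of all genes tested were called lower. The sum of the 8 was 116.5 and 126.7 RPKM in control and 25.2 and 26.7 RPKM under the label. THY1 stood at 169 and 209 CPM and 41.0 and 53.9 CPM, and PDGFRB at 93.2 and 104 CPM and 13.2 and 24.6 CPM. DPT was under 1 CPM in every library, and DCN and LUM are in the list of fibril proteins as well. The part of these markers in the collagen result was not tested. Endothelial markers summed to 1.36 and 1.80 RPKM in control and 0.279 and 0.158 RPKM under the label. Of the leukocyte markers, PTPRC, CD3E and CD79A were under 1 CPM in all libraries, and the list's sum, 43.8 and 52.3 RPKM against 70.6 and 78.4 RPKM, came from CD68, which other cells also express.

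The tested collagens are long and rich in G and C. Their median exon length was 9408 bases against 5384 for all genes tested, and their median GC content 60.2% against 47.6%. After a correction of the counts for both, 16 collagens were called lower and 2 higher, where 21.0% of all genes tested were called lower and 24.0% higher. The median log2 fold change was then -0.96 against 0.061 for all genes. Every collagen called lower in the main fit fell less with this correction. COL16A1, for example, changed by -0.71 in place of -1.14, COL27A1 by -0.80 in place of -1.35 and COL6A3 by -1.74 in place of -2.27. The share of ribosomal RNA names also differed between the groups, and its part in the result was not tested.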

How the data were processed

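RNA was measured in 2 control and 2 PRMT5 KD libraries. Values are estimated counts, which the authors deposited unnormalized, some with decimals. The submitters' processing notes name FastQC, Trim Galore, STAR, Salmon and DESeq2 on GRCh38; the methods name STAR and FeatureCounts. Which of these made the estimated counts is not given in the sources used here, nor is use of strand. No column was unmapped.

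In each table, 28 entries with names turned into dates were left out (0.150% to 0.161% of counts). Names were matched to GENCODE release 44 by symbol (21672), RefSeq number (1118) or synonym (1544), 52 were second names of a gene, 325 were ambiguous and 4996 had no match. Counts were rounded and TMM factors computed on the tested genes (0.946, 0.934, 1.04 and 1.09). The alternatives were DESeq2 1.42.0, other scalings and filters, all gene names, a replicate term, a spline correction for length and GC content, a stricter fold threshold and each library left out. Genes of at least 0.5 RPKM in both libraries of a group entered edgeR 4.0.16 (quasi-likelihood, robust, R 4.3.3), with Benjamini-Hochberg adjustment over 11882 genes, thresholds of 0.05 and 0.5 (log2), and no replicate term. RPKM used union exon lengths. The procedure was tested on simulated data.

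All tested collagens were named, untested ones where a library exceeded 10 counts, and the 5 called genes of largest change of each other list, with all tested receptors. The members and lists were chosen with earlier results of these data known. VIM, CDH2, KRT8 and KRT18, the crossed pairing, the longest-transcript lengths, the genes named for promoters and the genes given with CPM were chosen after values were seen. Of the added genes, KRT8 stood at 14.5 and 17.1 CPM in control and 6.67 and 10.8 CPM under the label, and CDH2 at 164 and 134 CPM and 190.0 and 159 CPM.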

Additional observations from a re-analysis of the deposited data

How the results depend on the processing

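The number of collagens called (18 of 21) could change when 1 library was left out, as did the number over all genes. In those fits a lone library was assumed to vary like the others. The median log2 fold change of the tested collagens then ran from -1.42 to -1.23. The number called was 18 with DESeq2 1.42.0, DESeq2 size factors, scaling by total counts or the length and GC correction. It was 19 over all gene names, 27 of 43 without the filter and 27 of 35 with filterByExpr. The labels do not say that replicate numbers pair the libraries and the deviations of same-numbered libraries correlated at -0.10, so the replicate block was an alternative: it called 18 collagens and 5190 genes against 5417, changed no collagen call, and with the length and GC correction gave 20. A crossed pairing, added after the data were seen, called 18 collagens and 5483 genes.

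Calls that changed for COL4A1, COL4A5, COL4A6, COL6A1, COL7A1 and COL18A1 stand beside their values. COL7A1 turned to 0.29 with the length and GC correction, 0.26 with the replicate block added and 0.089 without PRMT5 KD replicate 2, in a range from -0.65 over the libraries left out. For the 8 collagens with at most 9 counts in a library, the depth allows only large differences to be detected. Leaving out 1 library gave 5 to 14 called modification genes, 7 to 12 export genes, 7 to 9 receptors and 3 to 6 fibril proteins, and a PRMT5 log2 fold change of 0.57 to 0.78. At a threshold of 1 on the log2 scale 3 modification genes were called. All genes called numbered 2560 of 11882 at that threshold. The length used moved the control mean of COL6A3/COL6A1 from 0.0894 to 0.348 and of COL8A1/COL8A2 from 117 to 236 (counts in place of RPKM), and the cause of the other changes was not tested.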
